A study of Mus musculus with 19 samples.

Results

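The Ifi200 family is a cluster of interferon-inducible genes on mouse chromosome 1 whose proteins bind DNA. Of the family, 9 names were followed: Ifi203, Ifi204, Ifi205, Ifi207, Ifi209, Ifi211, Mnda, Mndal and Aim2. They were matched to the deposited count table, which has 33862 RefSeq accessions with 24210 gene symbols, and each gene was represented by its accession with the highest mean count over all 19 libraries. Mnda is an older symbol of Ifi211, so the 9 names stand for 8 genes. Of the 8 genes, 7 had enough reads to be tested. Ifi211 had 1 read in 1 library, V1 of the TET2-FLT3 vehicle group, and 0 in the other 18, and its second accession had 0 throughout. The family was picked from earlier results of these data, in which Ifi204 stood out in TET2-FLT3 vehicle against WT. The values that chose it are those of that contrast, so Ifi204 is described there without a p-value. Its other contrasts, except AG-221 against vehicle, reuse the WT or vehicle libraries of that one. Those libraries favour a difference in advance, so its p-values there are descriptions.

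RNA was measured in sorted lin- Sca+ cKit+ cells, the compartment that holds blood stem cells and early progenitors, of C57BL/6 mice. Untreated wild-type mice gave 4 libraries (WT). Mice of genotype Idh2 R140Q;Flt3-ITD with acute myeloid leukemia gave 3 libraries after vehicle and 4 after AG-221, an inhibitor of mutant IDH2. Mice lacking Tet2 and carrying the Flt3 internal tandem duplication (written Tet2-/-;Flt3-IDT in the labels), also leukemic, gave 4 libraries after vehicle and 4 after 5-Aza. AG-221 went in by gavage, 2 times a day for 4 to 5 weeks, at 100 mg/kg as a single agent or 40 mg/kg in combination, and the labels do not say which libraries had which dose. 5-Aza, a hypomethylating nucleoside, was injected into the peritoneum at 5 mg/kg on 5 days of every 21, for 4 cycles, and the series text also calls it decitabine, which is another drug. No WT library was given vehicle, each leukemia had its own drug, and ages were not given in the labels used here.

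Proteins of this family pair a pyrin domain, which binds other pyrin domains, with a HIN domain, which holds double-stranded DNA regardless of its sequence. Aim2 is the best understood: it meets DNA in the cytosol and recruits the adaptor Pycard and caspase-1 into an inflammasome, which matures interleukin-1 and can kill the cell. Ifi204 is often treated as the mouse counterpart of human IFI16, which senses DNA through Sting, and several other members are nuclear proteins linked to transcription and growth arrest. In blood cells the family is typical of monocytes, macrophages and dendritic cells, and type I interferon induces many of its genes.

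Total counts per library ran from 9635795 to 20383132, and V3-2 and V5-2, in the IDH2-FLT3 and TET2-FLT3 vehicle groups, were the deepest. The labels do not say whether these came from the same animals as V3 and V5, nor that any libraries came from separate animals, so each p-value speaks of the spread among libraries, which may be technical. Ly6a, which encodes Sca1, was listed at 0 in every library and Kit at no more than 0.151 CPM (counts scaled to the library total), although both proteins were used for the sort. Ifi203 had 3 accessions, of which 2 were at 0 in every library. If reads that fit more than 1 of them were not counted, its level is too low. Members resemble each other, and in GENCODE vM21 the annotated span of Mndal also overlaps that of Ifi203 on the same strand. Of all 50-base stretches of the Ifi205 transcript, 49.5% also occur in Ifi211, and 34.7% of those of Ifi209 occur in Ifi214, 23.2% of those of Ifi204 in Ifi211 and 15.0% of those of Mndal in Ifi211. Aim2 shared 0.932% with any other gene. How reads from shared stretches were assigned is not given in the sources used here, so the split of reads between Ifi205, Ifi204, Mndal, Ifi203 and the nearly empty Ifi211 is uncertain.

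The stretches just upstream of the genes show where the members are alike and where they differ. They are the 250 bases before the annotated start, from RefSeq on GRCm38.p6, read in the direction of the gene. Members matched 9 windows of 7 genes, because Mndal and Ifi203 have 2 starts each, and Ifi204 had no entry. The pattern searched on both strands was GAAA, any 2 bases and GAAA again, the core of the element bound by interferon-activated factors. A match is in capitals. The set below covers the members that rose in leukemia (Ifi205, Ifi207 and Ifi209) and those that did not (Mndal, Ifi203 and Aim2). Their positions are chr1:174031756-174032005 on the minus strand for Ifi205, chr1:173741810-173742059 minus for Ifi207, chr1:173630609-173630858 plus for Ifi209, chr1:173880188-173880437 minus for Mndal, chr1:173942493-173942742 minus for Ifi203 and chr1:173420354-173420603 plus for Aim2.
Ifi205: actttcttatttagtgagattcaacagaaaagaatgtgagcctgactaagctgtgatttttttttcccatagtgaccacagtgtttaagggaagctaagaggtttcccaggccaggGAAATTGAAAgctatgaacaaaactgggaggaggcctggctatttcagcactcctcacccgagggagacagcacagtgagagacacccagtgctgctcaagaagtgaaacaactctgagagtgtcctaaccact
Ifi207: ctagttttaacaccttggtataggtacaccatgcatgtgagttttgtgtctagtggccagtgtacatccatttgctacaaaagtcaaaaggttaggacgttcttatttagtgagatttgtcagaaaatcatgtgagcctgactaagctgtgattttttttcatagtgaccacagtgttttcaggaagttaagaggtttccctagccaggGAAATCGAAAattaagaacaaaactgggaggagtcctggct
Ifi209: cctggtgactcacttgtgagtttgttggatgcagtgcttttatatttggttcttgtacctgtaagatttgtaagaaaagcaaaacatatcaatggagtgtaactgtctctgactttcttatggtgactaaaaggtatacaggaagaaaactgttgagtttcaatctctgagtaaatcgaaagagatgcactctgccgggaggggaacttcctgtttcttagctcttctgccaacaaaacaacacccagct
Mndal: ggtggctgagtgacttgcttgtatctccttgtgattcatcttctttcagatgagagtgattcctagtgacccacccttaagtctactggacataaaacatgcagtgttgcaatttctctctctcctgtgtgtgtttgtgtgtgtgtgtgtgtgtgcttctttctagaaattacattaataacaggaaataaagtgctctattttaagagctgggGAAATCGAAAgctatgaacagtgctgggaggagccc
Ifi203: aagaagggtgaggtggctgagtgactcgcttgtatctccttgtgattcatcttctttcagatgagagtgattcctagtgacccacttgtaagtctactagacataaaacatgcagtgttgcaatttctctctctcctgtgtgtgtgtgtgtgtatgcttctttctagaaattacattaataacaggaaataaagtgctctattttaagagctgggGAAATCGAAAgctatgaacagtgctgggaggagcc
Aim2: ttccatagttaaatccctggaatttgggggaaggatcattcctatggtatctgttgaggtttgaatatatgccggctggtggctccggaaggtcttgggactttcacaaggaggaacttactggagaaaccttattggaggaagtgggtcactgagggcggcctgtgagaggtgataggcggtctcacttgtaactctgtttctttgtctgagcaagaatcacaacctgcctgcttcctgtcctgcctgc

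Of the 9 member windows, 6 held the spaced GAAA pair, against 2.98% of all 32851 mouse promoters of this length. The match lay 36 to 27 bases before the start in Mndal, 35 to 26 in Ifi203, 41 to 32 in Ifi207, 37 to 28 in Ifi211 and 134 to 125 in Ifi205, and the window of the second Mndal start had TTTCTCTTTC, a match on the other strand, 54 to 45 before it. Ifi205 and Ifi211 carry GAAATTGAAA, while Ifi207, Mndal and Ifi203 carry GAAATCGAAA. Ifi209 had no exact match. Its closest stretches were TAAATCGAAA, 79 to 70 bases before the start, which differs from the pattern by G1T, and GAAAAGCAAA, 177 to 168 before, which differs by G7C, with positions counted from 1 at the first letter of the pattern. Stretches with at most 1 letter off on the given strand occur in 17.4% of promoters. Aim2 had none, and held the letters GAGGAAGT, a core bound by the myeloid factor PU.1, 113 to 106 before its start, as do 2.44% of promoters on either strand. TTCNNNGAA, the core bound by STAT dimers, was in 0 of 9 windows against 7.02% of promoters. GGAA, any 2 bases and GAAA, the composite of PU.1 and interferon regulatory factors, was in 0 of 9 against 2.30%. The GAGGAAGT of Aim2 overlapped no match of the other patterns. The windows held 0 to 4 CG dinucleotides each, below the median of 6 over all promoters. That is not rare: as few or fewer occur in 7.9% of promoters for the lowest window, of Mndal, and in 44.4% for the highest, of Aim2. Ifi203 and Mndal were 89.3% identical over this stretch and Ifi207 and Ifi211 85.0% identical. The exact match was present in members that rose in leukemia, such as Ifi205, and in members that did not, such as Ifi203.

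On the scale of FPKM, which divides by transcript length and library total, Mndal was by far the most abundant member in WT cells, at 174 ± 26.9 (mean ± SD, n = 4). Aim2 followed at 31.9 ± 6.91 FPKM, and Ifi209 at 6.99 ± 1.31 FPKM, Ifi205 at 4.92 ± 3.08 FPKM, Ifi203 at 2.16 ± 0.454 FPKM, Ifi207 at 1.25 ± 0.466 FPKM and Ifi204 at 1.02 ± 0.337 FPKM were all low. As a share of the CPM of all 7 members, which is not per length, Mndal made up 67.7 to 74.3% in WT libraries and 19.9 to 34.6% in IDH2-FLT3 vehicle, which did not overlap. The share lay between 51.4 and 83.9% after AG-221 and between 78.2 and 82.2% after 5-Aza. TET2-FLT3 vehicle libraries were uneven, at 66.5% in V1, 74.3% in V19, 37.5% in V5 and 31.0% in V5-2.

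**Figure D1:**
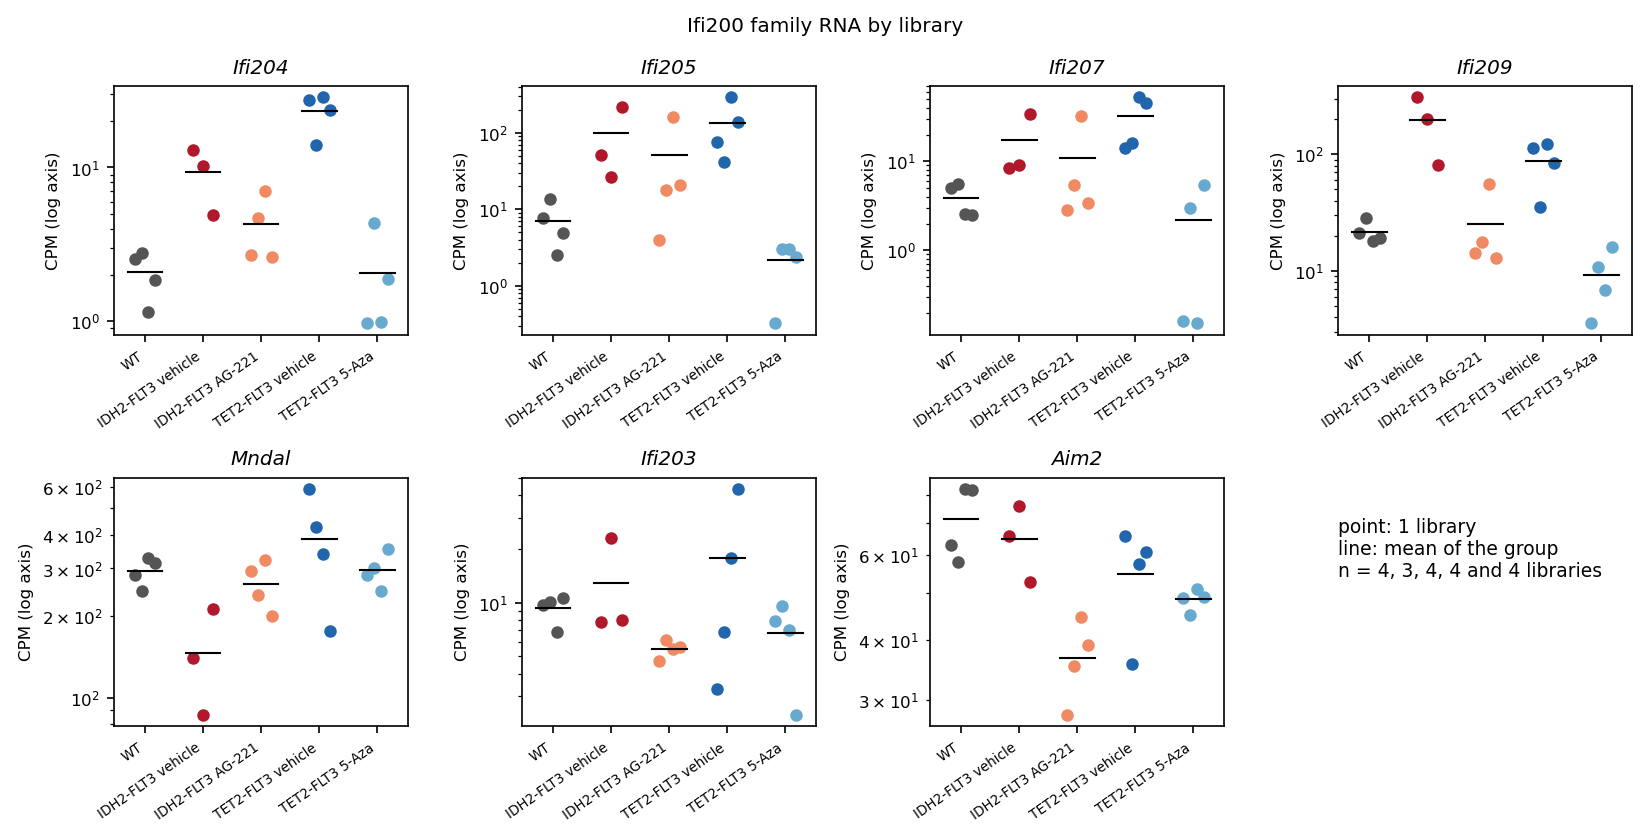
Levels of the 7 tested members in each of 19 libraries, in CPM on a log axis, by group; points are libraries and lines are group means. Ifi204, Ifi205, Ifi207 and Ifi209 are high in both vehicle groups and low in WT and 5-Aza, Mndal is lowest in the IDH2-FLT3 vehicle group, and Aim2 is lowest with AG-221, at 27.9 to 44.5 CPM.

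Counts were compared with edgeR's quasi-likelihood test on all 19 libraries, and rises and falls are named only at a Benjamini-Hochberg adjusted p under 0.05 over the 11830 accessions tested. Against WT, TET2-FLT3 vehicle cells had 4 members higher and 0 lower of 7, where 10.1% of all accessions were called, 4.43% higher and 5.71% lower. IDH2-FLT3 vehicle cells had 3 higher and 1 lower, where 20.5% of accessions were called, 10.1% higher and 10.4% lower. Between the vehicle groups of the leukemias 1 member was higher in TET2-FLT3 and 0 lower, where 4.28% of accessions were called, 2.35% higher and 1.93% lower. 5-Aza had 4 members lower and 0 higher, where 1.88% of accessions were called, 0.431% higher and 1.45% lower. AG-221 had 2 members lower and 0 higher, where 9.68% of accessions were called, 4.39% higher and 5.29% lower. Counted by groups whose libraries do not overlap, 4 members were higher in TET2-FLT3 vehicle than in WT (6.98% of accessions were), 4 were higher in IDH2-FLT3 vehicle (17.1%) and 1 lower (20.0%). Between the vehicle groups 1 was higher in TET2-FLT3 (4.51%), and 3 were lower with AG-221 (10.8%) and 4 with 5-Aza (4.26%). The median log2 fold change of the members was 2.02, 2.15, 0.47, -3.25 and -0.97 in these comparisons, beside 0.07, 0.02, -0.01, -0.05 and 0 over all accessions. The comparisons share libraries: both leukemias were set against the same WT, and each drug against the vehicle group of its own leukemia. A vehicle group that is high for a gene therefore counts in the leukemia contrast and in the drug contrast. Because the members were chosen with results known, these counts describe them. The 4 called higher in TET2-FLT3 vehicle than in WT, the 3 called higher in IDH2-FLT3 vehicle and the 4 lower with 5-Aza include Ifi204, by which the family was picked.

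**Figure D2:**
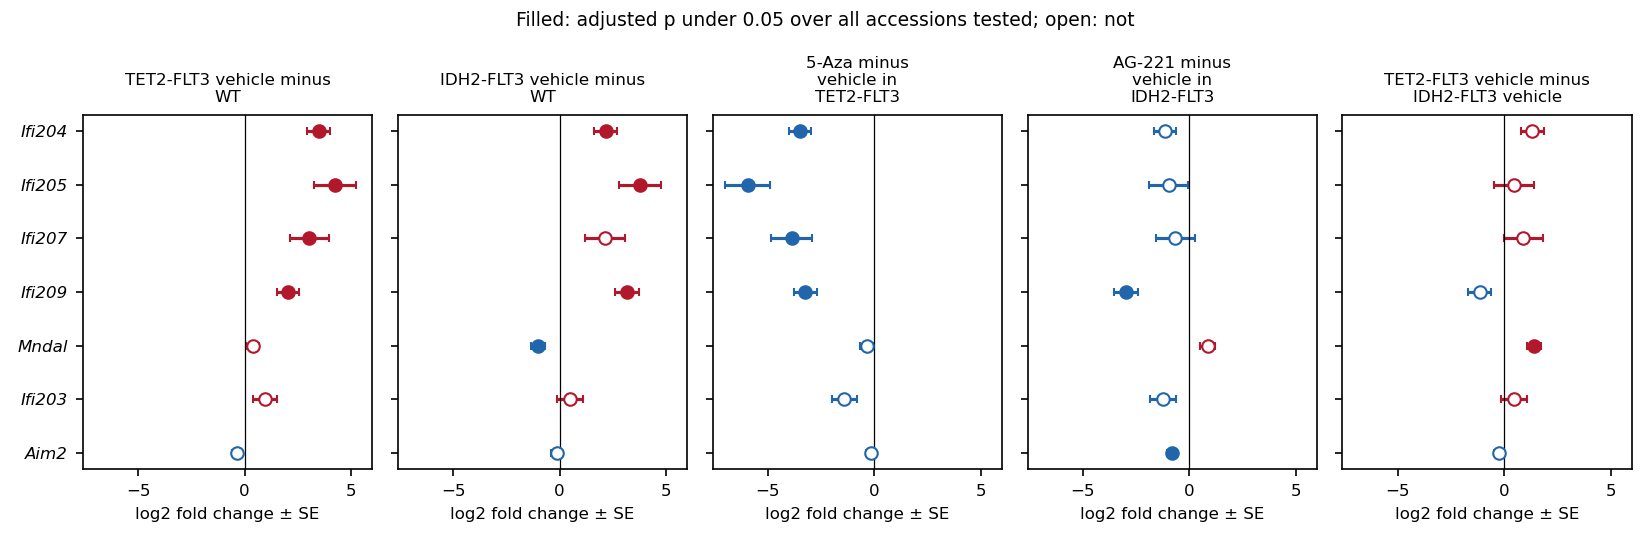
Log2 fold change ± standard error of each tested member in 5 comparisons; filled points have an adjusted p under 0.05 over all 11830 accessions, open points do not. Ifi204, Ifi205, Ifi207 and Ifi209 lie right of 0 against WT and left of 0 with 5-Aza, and with AG-221 Ifi209 and Aim2 are filled. The family was picked by Ifi204 in TET2-FLT3 vehicle against WT, so its points are descriptions in all comparisons but AG-221 against vehicle.

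Ifi204 gave 2.53, 2.79, 1.16 and 1.85 CPM in the 4 WT libraries. In TET2-FLT3 vehicle it gave 27.3, 13.9, 28.6 and 23.6 CPM in V1, V19, V5 and V5-2. Every one of these lay above every WT library, and the log2 fold change was 3.48 ± 0.53. In IDH2-FLT3 vehicle it gave 12.99, 10.2 and 4.89 CPM in V3, V3-2 and V9, all above WT and all below TET2-FLT3 vehicle. The rise over WT was 2.16 ± 0.53 on the log2 scale (edgeR adjusted p = 0.00746). The WT libraries that chose Ifi204 favour this rise in advance. With 5-Aza Ifi204 read 0.971, 4.37, 0.987 and 1.90 CPM in AZ10, AZ11, AZ16 and AZ17. These do not overlap TET2-FLT3 vehicle and overlap WT, and the fall against vehicle was -3.50 ± 0.53 (edgeR adjusted p = 0.00229). The vehicle libraries that chose Ifi204 favour this fall in advance. With AG-221 it read 2.72, 4.71, 7.03 and 2.62 CPM in AG1, AG12, AG13 and AG8, which overlap IDH2-FLT3 vehicle, and the difference of -1.13 ± 0.52 did not pass (edgeR adjusted p = 0.147). TET2-FLT3 and IDH2-FLT3 vehicle libraries did not overlap for Ifi204, but the difference of 1.32 ± 0.53 did not pass (edgeR adjusted p = 0.162).

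Ifi205, which in mouse macrophages has been linked to transcription of the inflammasome adaptor gene, had the widest range. It gave 7.66, 13.4, 2.56 and 4.83 CPM in WT. It gave 74.8, 40.8, 289 and 136 CPM in V1, V19, V5 and V5-2 of TET2-FLT3 vehicle, and 50.9, 26.7 and 219 CPM in V3, V3-2 and V9 of IDH2-FLT3 vehicle. All vehicle libraries of the leukemias lay above all WT libraries, but within each leukemia they differed by 7.09 and 8.21 times. Ifi205 rose in TET2-FLT3 vehicle (log2 fold change 4.24 ± 0.97, edgeR adjusted p = 0.0100) and in IDH2-FLT3 vehicle (3.79 ± 0.98, edgeR adjusted p = 0.0107). Without V9 the IDH2-FLT3 value was 2.43 and did not pass (edgeR adjusted p = 0.0681). With 5-Aza it read 0.324, 2.99, 3.04 and 2.35 CPM, so that no 5-Aza library came near a vehicle library. These rest on 107 counts in all, with 4 in AZ10. The fall was -5.95 ± 1.07 (edgeR adjusted p = 0.00567), the largest of any member in the 5 comparisons. With AG-221 it read 3.93, 17.9, 159 and 20.7 CPM in AG1, AG12, AG13 and AG8. AG13 stood at the level of the vehicle libraries, the groups overlapped, and the difference of -0.97 ± 0.91 did not pass (edgeR adjusted p = 0.481). It was 0.39 without V9 and -2.80 without AG13, neither past the threshold.

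Ifi207, another protein with pyrin and HIN domains, moved with Ifi205 at a lower level per length (9.35 against 82.9 FPKM in TET2-FLT3 vehicle). It gave 4.98, 5.51, 2.56 and 2.50 CPM in WT and 14.2, 15.9, 52.4 and 45.4 CPM in V1, V19, V5 and V5-2. The rise in TET2-FLT3 vehicle was 3.04 ± 0.92 on the log2 scale (edgeR adjusted p = 0.0393), close to the threshold. It ended when any WT library, V5 or V5-2 was left out, with edgeR adjusted p from 0.0604 to 0.115, and when V3-2 and V5-2 were left out together (0.0554) or summed with V3 and V5 (0.0635). IDH2-FLT3 vehicle gave 8.43, 9.13 and 34.2 CPM, all above WT, but the difference of 2.15 ± 0.93 did not pass (edgeR adjusted p = 0.106). It passed when the 2 groups were fitted alone (edgeR adjusted p = 0.0204) and with no filter on low counts (edgeR adjusted p = 0.0452). With 5-Aza Ifi207 read 0.162, 2.99, 0.152 and 5.42 CPM, a range of 35.7 times in a group that lay wholly below vehicle. The fall was -3.89 ± 0.96 (edgeR adjusted p = 0.0378). It ended when V5, V5-2, AZ10, AZ11 or AZ16 was left out, up to an edgeR adjusted p of 0.123. It also ended with the 2 groups fitted alone (edgeR adjusted p = 0.0701), without V3-2 and V5-2 (0.0705) and with these summed with V3 and V5 (0.0816). With AG-221 it read 2.82, 5.39, 32.0 and 3.39 CPM, with AG13 again apart, and did not pass (-0.66 ± 0.91, edgeR adjusted p = 0.638).

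Ifi209, for which Pyhin1 is an older symbol, was the member that fell with both drugs. It gave 21.1, 28.6, 18.2 and 19.3 CPM in WT and 308, 202 and 81.1 CPM in V3, V3-2 and V9 of IDH2-FLT3 vehicle. This was a rise of 3.18 ± 0.56 on the log2 scale, or 9.05-fold (edgeR adjusted p = 7.58e-04). TET2-FLT3 vehicle gave 112, 35.2, 122 and 84.4 CPM, all above WT. That rise was 2.02 ± 0.52 (edgeR adjusted p = 0.0186), and it ended without wt1, wt3 or wt4 (edgeR adjusted p = 0.0513, 0.0620 and 0.0586). AG-221 brought 14.4, 17.7, 55.7 and 12.9 CPM in AG1, AG12, AG13 and AG8, all below all 3 vehicle libraries. The fall was -2.97 ± 0.56, or 7.84-fold (edgeR adjusted p = 0.00626), and it did not pass with the 2 groups fitted alone (edgeR adjusted p = 0.0660). 5-Aza brought 3.56, 10.8, 6.83 and 16.1 CPM, below TET2-FLT3 vehicle and also below all WT libraries, a fall of -3.25 ± 0.55, or 9.53-fold (edgeR adjusted p = 0.00321). The responses of Ifi209 to the drugs differed by 0.28 ± 0.74 on the log2 scale (edgeR adjusted p = 0.880).

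Mndal, the abundant member, took another course. It gave 284, 248, 329 and 313 CPM in WT and 139.8, 86.3 and 212 CPM in V3, V3-2 and V9. All 3 lay below WT, a fall of -1.01 ± 0.34 on the log2 scale (edgeR adjusted p = 0.0417) with no overlap. The call ended without wt1, wt3, wt4, V3 or V3-2, with edgeR adjusted p from 0.0687 to 0.182, with no filter on low counts (edgeR adjusted p = 0.0513), without V3-2 and V5-2 (0.0800) and with these summed with V3 and V5 (0.0918). TET2-FLT3 vehicle gave 591, 428, 340.1 and 177 CPM in V1, V19, V5 and V5-2, on both sides of WT (0.39 ± 0.31, edgeR adjusted p = 0.439). Against IDH2-FLT3 vehicle it was 2.63-fold higher (edgeR adjusted p = 0.0248), although V5-2 lay below V9. That call ended without V3, V3-2, V1 or V19, with edgeR adjusted p from 0.0593 to 0.152, when the 2 groups were fitted alone (edgeR adjusted p = 0.362) and with the pairs summed (0.0648). AG-221 libraries read 294, 239.6, 321 and 200.7 CPM, of which AG1 and AG13 lay within the range of WT and AG12 and AG8 below it, and the difference from vehicle of 0.85 ± 0.34 did not pass (edgeR adjusted p = 0.103). It passed without V9 (1.23, edgeR adjusted p = 0.0305) and with limma on log2(FPKM + 1) or log2(FPKM + 0.1) (adjusted p = 0.026 and 0.024). 5-Aza libraries read 283, 302, 248 and 356 CPM and did not differ from vehicle by the test (-0.37 ± 0.31, edgeR adjusted p = 0.674).

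Ifi203, with counts on 1 of its 3 accessions, did not pass in any comparison. It gave 9.65, 10.04, 6.85 and 10.6 CPM in WT, 7.76, 23.1 and 8.02 CPM in V3, V3-2 and V9, and 3.27, 6.82, 17.8 and 43.5 CPM in V1, V19, V5 and V5-2. The deepest libraries, V3-2 and V5-2, were the highest of their groups for Ifi203 and the lowest for Mndal. Whether depth has a part in that was not tested. AG-221 libraries were tight, at 4.73, 6.15, 5.47 and 5.62 CPM, and lay wholly below vehicle, but the difference of -1.24 ± 0.62 did not pass (edgeR adjusted p = 0.185). 5-Aza gave 7.93, 9.62, 7.06 and 2.35 CPM (-1.41 ± 0.59 against vehicle, edgeR adjusted p = 0.311). The differences from WT were 0.95 ± 0.58 in TET2-FLT3 (edgeR adjusted p = 0.298) and 0.48 ± 0.62 in IDH2-FLT3 vehicle (edgeR adjusted p = 0.604).

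Aim2, the cytosolic sensor that builds an inflammasome, varied least. It gave 62.9, 58.0, 82.3 and 81.7 CPM in WT, 65.8, 75.8 and 52.8 CPM in IDH2-FLT3 vehicle, and 65.8, 35.5, 57.3 and 60.7 CPM in TET2-FLT3 vehicle. Neither leukemia differed from WT by the test (-0.14 ± 0.24, edgeR adjusted p = 0.719, and -0.38 ± 0.23, edgeR adjusted p = 0.291). AG-221 gave 27.9, 35.2, 44.5 and 38.9 CPM, wholly below vehicle. This was a fall of -0.82 ± 0.24, or 1.77-fold (edgeR adjusted p = 0.0391). The call ended without V3, V3-2, AG1, AG12 or AG8, up to an edgeR adjusted p of 0.175, and under the fit without a low-count filter, with the 2 groups alone, and in both fits to log2 FPKM (adjusted p = 0.0874 to 0.113). It also ended without V3-2 and V5-2 (edgeR adjusted p = 0.125) and with these summed with V3 and V5 (0.105). 5-Aza gave 48.9, 45.0, 51.0 and 49.1 CPM (-0.18 ± 0.23, edgeR adjusted p = 0.805). The annotated span of Aim2 overlaps that of Cadm3 on the opposite strand, and the sources used here do not say whether counting used strand. Cadm3 itself had 0.202 to 1.83 CPM as group means.

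The response to AG-221 was set against the response to 5-Aza, each relative to the vehicle group of its own leukemia, in 1 contrast. Of the 7 members 0 passed, where 0.228% of all accessions did, 0.203% higher and 0.0254% lower. At an unadjusted p under 0.05, 4 members differed (Ifi204, Ifi205, Ifi207 and Mndal), as did 1831 of 11830 accessions. DESeq2 called 2 members, Ifi204 (adjusted p = 0.0303) and Ifi205 (adjusted p = 0.0237), and 355 accessions in all. The differences were 4.98 ± 1.38 for Ifi205, 3.22 ± 1.31 for Ifi207, 2.37 ± 0.73 for Ifi204 and 1.22 ± 0.46 for Mndal on the log2 scale, with edgeR adjusted p of 0.116, 0.253, 0.153 and 0.222. A positive value means that the level fell less, or rose more, with AG-221. The drug and the leukemia differ together here and cannot be told apart. Both this contrast and that of AG-221 with vehicle depended on the libraries fitted. With its 4 groups alone edgeR called 0 of 11379 accessions for this contrast. For AG-221 against vehicle, fitted on its 7 libraries alone, edgeR called 0 of 10681 accessions and 0 members, with 2768 accessions and 4 members (Ifi203, Ifi209, Mndal and Aim2) at an unadjusted p under 0.05, where the fit to 19 libraries called 1145 accessions and DESeq2 called 2092.

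Ifi204, Ifi205, Ifi207 and Ifi209, which rose in TET2-FLT3 vehicle, were also correlated across the 19 libraries, which that choice of genes largely fixes. On log2 CPM, Pearson's r was 0.90 between Ifi205 and Ifi207 and 0.73 after the group means were removed. It was 0.82 between Ifi204 and Ifi209, with 0.81 within groups, and ran from 0.79 to 0.90 over the 6 pairs of these genes. The other 4 pairs had 0.44 to 0.57 within groups. Aim2 and Mndal had r from -0.34 to 0.39 with them, but within groups Aim2 had 0.50 with Ifi209, about as much as Ifi205 had with Ifi209 (0.51). Ifi203 and Mndal ran against each other (r = -0.56, and -0.84 within groups). These are descriptions of 19 libraries that share groups, depth and, for similar transcripts, reads. The genes most like each member were also read off by r over all accessions. For Ifi205 they were Jaml (0.978), Gpr141b (0.976) and Slamf7 (0.974), for Ifi207 H2-Aa (0.939), Col23a1 (0.935) and Tlr13 (0.933), and for Ifi209 Ctsh (0.962), I830077J02Rik (0.951) and Ly86 (0.947). For Ifi204 they were Atf3 (0.894), Ms4a4c (0.889) and Mpeg1 (0.884), for Mndal Epsti1 (0.951), Akap7 (0.925) and Trmt10a (0.912), for Ifi203 Srebf2 (0.910), Nt5c3 (0.900) and Fn3krp (0.897), and for Aim2 Cdr2 (0.821), Alpk1 (0.818) and Camsap2 (0.814).

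**Figure D3:**
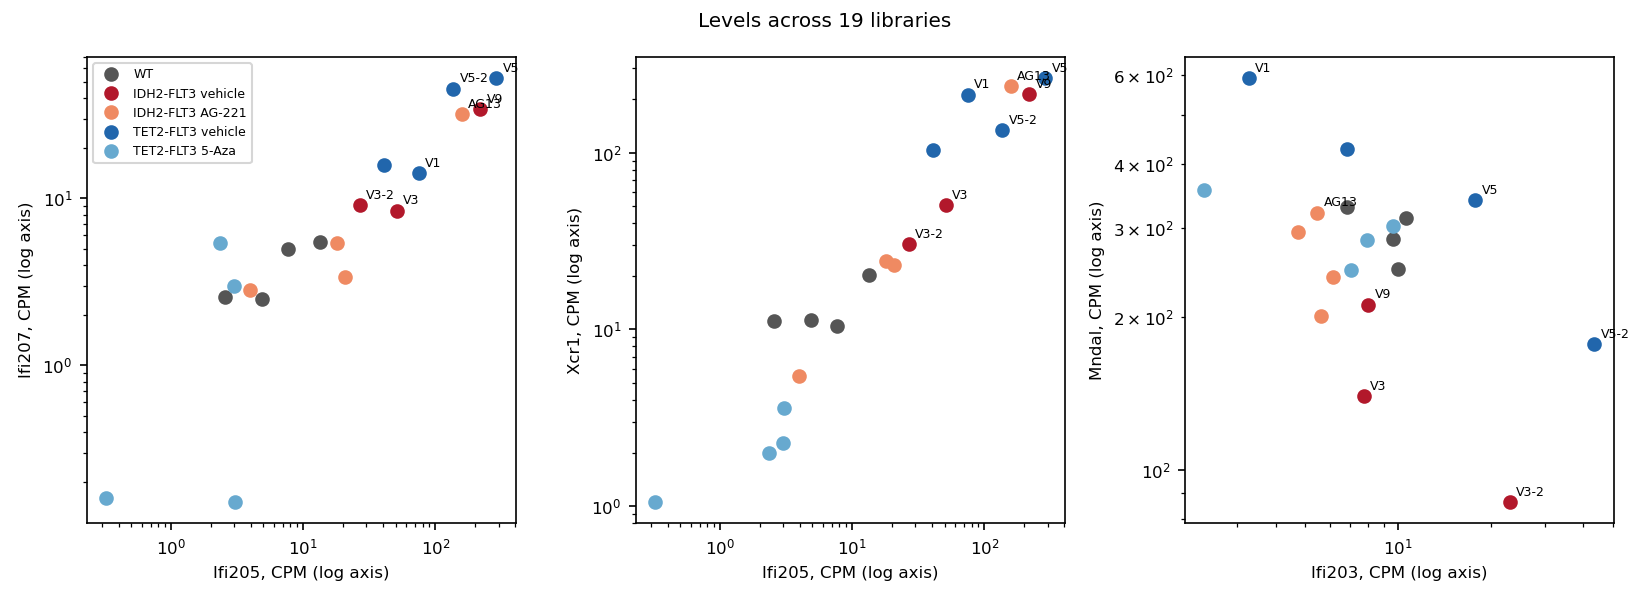
Levels of Ifi205 against Ifi207 (left), Ifi205 against the dendritic cell receptor gene Xcr1 (middle) and Ifi203 against Mndal (right) in 19 libraries, in CPM on log axes, coloured by group. AG13 sits among the vehicle libraries for Ifi205, Ifi207 and Xcr1, and V3-2 and V5-2 combine the highest Ifi203 of their groups with the lowest Mndal.

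Markers of other cells moved in the same libraries. Xcr1, a receptor of cross-presenting dendritic cells, gave 10.4 to 20.2 CPM in WT, 50.3, 30.4 and 214 CPM in V3, V3-2 and V9, and 213, 103, 263 and 134 CPM in V1, V19, V5 and V5-2. It gave 5.44, 24.3, 237 and 23.0 CPM in AG1, AG12, AG13 and AG8 and 1.05 to 3.57 CPM with 5-Aza. Pearson's r of Xcr1 with Ifi205 was 0.966 over 19 libraries on log2 CPM, and AG13 was high for both. Marker counts below are to be read against the share of all accessions called. That was 10.1% in TET2-FLT3 vehicle, 20.5% in IDH2-FLT3 vehicle, 9.68% with AG-221 and 1.88% with 5-Aza. With only the compared groups fitted, 0 of 10681 accessions passed for AG-221, so no AG-221 call of a marker held in that fit. Of 8 dendritic cell markers tested, 5 were higher in TET2-FLT3 vehicle than in WT, 3 were higher and 2 lower in IDH2-FLT3 vehicle, 4 were lower with 5-Aza and 0 changed with AG-221. Their sum over 10 genes, of which Clec9a and Clec10a were at 0 in every group, ran from 598 to 752 CPM in WT, 356 to 870 CPM in IDH2-FLT3 vehicle, 818 to 1213 CPM in TET2-FLT3 vehicle, 489 to 1157 CPM after AG-221 and 387 to 746.5 CPM after 5-Aza. In every library most of that sum came from Flt3 (303 to 534 CPM in WT) and Bst2 (161 to 235.5 CPM in WT). Flt3 is the gene mutated in both leukemias, and Bst2 is also on the interferon-induced list below, so the sum says little about dendritic cells. Of 12 monocyte and macrophage markers tested, 11 were higher in IDH2-FLT3 vehicle and 5 in TET2-FLT3 vehicle than in WT, 6 were lower with AG-221 and 2 with 5-Aza. The sum of 14, with Itgam at 0, ran from 647 to 1419 CPM in WT, 2657 to 11040 CPM in IDH2-FLT3 vehicle, 1493 to 3057 CPM in TET2-FLT3 vehicle, 1058 to 3682 CPM after AG-221 and 557 to 1120 CPM after 5-Aza. The summed level of 7 genes of the sorted compartment, most of it from the stem cell factor gene Hlf (626 to 1061 CPM in WT), was 759 to 1220 CPM in WT against 36.6 to 124 CPM in IDH2-FLT3 vehicle and 214 to 422 CPM in TET2-FLT3 vehicle, with 292 to 542 CPM after AG-221 and 415 to 746.3 CPM after 5-Aza. Of 5 of these genes tested, 4 were lower in IDH2-FLT3 and 2 in TET2-FLT3 vehicle than in WT, and 0 higher. Cd34 was not among those that fell: it gave 15.0, 15.9 and 15.6 CPM in V3, V3-2 and V9 against 6.36 to 11.8 CPM in WT. Neutrophil genes summed to 1611 to 4101 CPM in WT, 887 to 25390 CPM in IDH2-FLT3 vehicle and 208 to 2297 CPM in TET2-FLT3 vehicle. B cell genes summed to 498 to 643 CPM in WT and to 48.3 to 106 CPM over both vehicle groups, with 9 of 9 tested lower in each. Erythroid genes summed to 85.6 to 173 CPM in WT and to 2.46 to 8.10 CPM over both vehicle groups, with 7 of 7 lower in each, and T and NK cell genes had 5 and 3 of 7 lower in IDH2-FLT3 and TET2-FLT3 vehicle. With AG-221, 4 of the 5 genes of the sorted compartment and 5 of 7 T and NK cell genes were higher. So were 1 erythroid and 1 B cell gene. With 5-Aza, 5 of 7 erythroid genes, 1 compartment gene and 1 B cell gene were higher. In these lists 0 were lower with either drug. The part of these cells in the family's levels was not tested, and in bulk RNA fewer cells of a type and less RNA per cell cannot be told apart.

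Genes beside the cluster were read in order along chromosome 1. Olfr433, an olfactory receptor gene upstream of Ifi205 on the opposite strand, gave 0.318 ± 0.204 CPM in WT and 4.12 ± 2.53 CPM in TET2-FLT3 vehicle (n = 4 each). It rose there by 3.67 ± 1.02 on the log2 scale (edgeR adjusted p = 0.0279), rose in IDH2-FLT3 vehicle by 3.02 ± 1.04 (edgeR adjusted p = 0.0450) and fell with 5-Aza by -4.97 ± 1.13 (edgeR adjusted p = 0.0244). Slamf8, a myeloid receptor gene on the far side of Aim2, rose in IDH2-FLT3 vehicle (2.58 ± 0.88, edgeR adjusted p = 0.0435) and fell with 5-Aza (-5.19 ± 0.98, edgeR adjusted p = 0.00760). Fcer1a, the mast cell and basophil immunoglobulin E receptor gene, fell in TET2-FLT3 vehicle (-3.02 ± 0.70, edgeR adjusted p = 0.0101) and rose with 5-Aza (2.94 ± 0.69, edgeR adjusted p = 0.0289). Olfr248, another olfactory receptor gene, fell in TET2-FLT3 vehicle from 1.04 ± 0.667 to 0.0102 ± 0.0205 CPM (edgeR adjusted p = 0.00689) and rose with 5-Aza (edgeR adjusted p = 0.0311). Inside the cluster, Ifi208 was at 0.905 ± 0.591 CPM in WT and fell to 0.0320 ± 0.0555 CPM in IDH2-FLT3 vehicle (edgeR adjusted p = 0.0264), on 2 counts in its 3 libraries. Mndal and Ifi203, which lie between Ifi204 and Ifi205, did not rise with them. Ifi202b had 0 counts in all libraries, and Ifi213 and Ifi214 had 2 and 42 in all and were not tested.

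**Figure D4:**
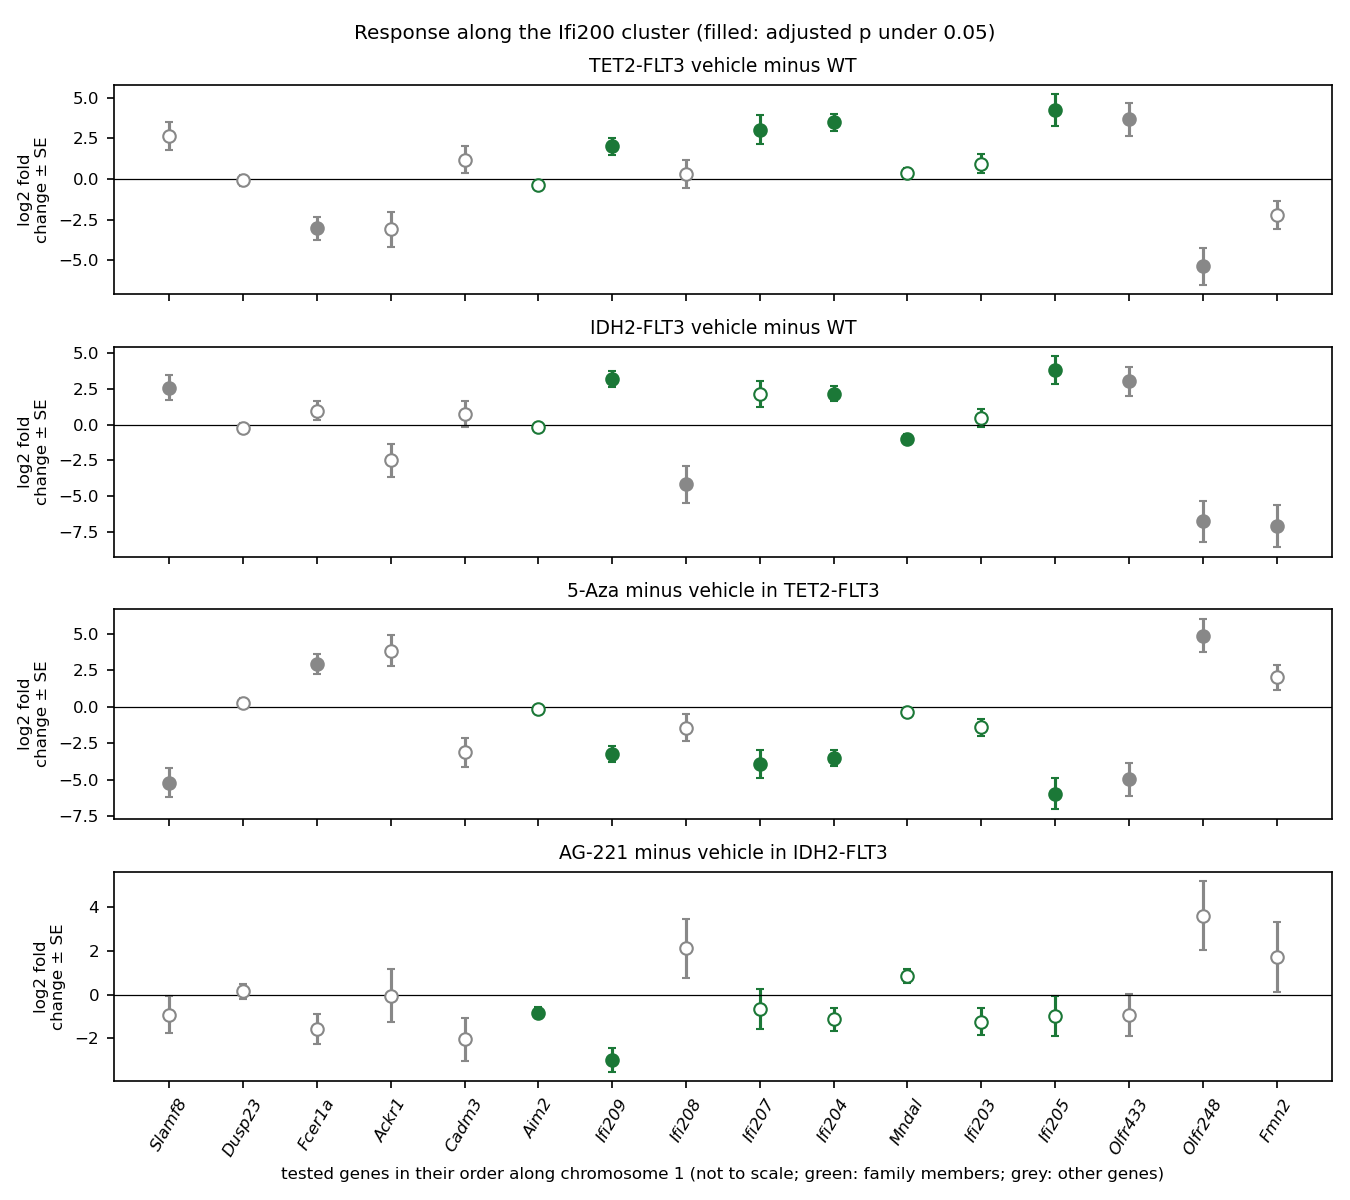
Log2 fold change ± standard error of tested genes of the cluster and its neighbours, in gene order along chromosome 1, for 4 comparisons; green points are family members, grey points other genes, filled points have an adjusted p under 0.05. Members that rose in TET2-FLT3 vehicle and fell with 5-Aza are interleaved with Mndal and Ifi203, whose points are open in both panels, and Fcer1a lies on the opposite side of 0.

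The pathways around the family were read from lists chosen with earlier results known. Of 20 inflammasome genes tested, 3 were higher and 1 lower in TET2-FLT3 vehicle than in WT, 6 higher and 2 lower in IDH2-FLT3 vehicle, 1 higher and 5 lower with AG-221, and 0 of 20 passed with 5-Aza. Over all accessions 10.1%, 20.5%, 9.68% and 1.88% were called in these 4 comparisons, and the counts of this and the next lists are to be read against these shares. With only the compared groups fitted, 0 of 10681 accessions passed for AG-221 against vehicle. No AG-221 call of a gene in these lists therefore held in that fit. Nlrp3, the sensor of another inflammasome, rose from 0.777 ± 0.315 CPM in WT to 18.1 ± 15.5 CPM in IDH2-FLT3 vehicle (log2 fold change 4.52 ± 0.87, edgeR adjusted p = 0.00150) and fell with AG-221 (-2.82 ± 0.81, edgeR adjusted p = 0.0348). Card9, an adaptor of innate signalling, rose in IDH2-FLT3 (4.99 ± 0.85, edgeR adjusted p = 5.68e-04) and TET2-FLT3 vehicle (2.55 ± 0.75, edgeR adjusted p = 0.0359) and fell with AG-221 (-4.08 ± 0.81, edgeR adjusted p = 0.00903). In TET2-FLT3 vehicle Card9 ran from 6.43 to 82.9 CPM, which overlaps WT at up to 8.98 CPM. Casp1, the protease that Aim2 activates, rose in TET2-FLT3 (1.09 ± 0.24, edgeR adjusted p = 0.00682) and IDH2-FLT3 vehicle (0.73 ± 0.25, edgeR adjusted p = 0.0445). Casp4, the noncanonical inflammasome caspase, fell in IDH2-FLT3 vehicle (-1.13 ± 0.28, edgeR adjusted p = 0.00721) and rose with AG-221 (1.36 ± 0.28, edgeR adjusted p = 0.0103).

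Of 27 DNA-sensing genes tested, 1 was higher and 1 lower in TET2-FLT3 vehicle than in WT, 7 higher and 1 lower in IDH2-FLT3 vehicle, 1 higher and 5 lower with AG-221 and 2 lower with 5-Aza. The 2 of 27 called in TET2-FLT3 vehicle are a smaller share than the 10.1% of all accessions. Tlr9, the endosomal receptor for CG-rich DNA, stood at 0.706 ± 0.151 CPM in WT and rose in TET2-FLT3 (3.78 ± 1.03, edgeR adjusted p = 0.0258) and IDH2-FLT3 vehicle (3.75 ± 1.06, edgeR adjusted p = 0.0173). In TET2-FLT3 vehicle Tlr9 ran from 0.818 to 31.45 CPM (9.725 ± 14.56), which overlaps WT at up to 0.919 CPM. It fell with 5-Aza (-4.71 ± 1.10, edgeR adjusted p = 0.0274) and with AG-221 (-3.56 ± 1.06, edgeR adjusted p = 0.0399). Dnase1l3, a secreted nuclease, fell with 5-Aza (-4.86 ± 1.12, edgeR adjusted p = 0.0258). Ikbke, a kinase downstream of nucleic acid sensors, rose in IDH2-FLT3 vehicle (1.49 ± 0.42, edgeR adjusted p = 0.0165) and fell with AG-221 (-1.39 ± 0.42, edgeR adjusted p = 0.0400). Xrcc5, a subunit of the DNA end-binding Ku complex, did the reverse in these comparisons (-1.49 ± 0.35, edgeR adjusted p = 0.00542, and 1.21 ± 0.34, edgeR adjusted p = 0.0342). For Ikbke the IDH2-FLT3 vehicle libraries ran from 28.7 to 190 CPM and overlapped WT, at 33.9 to 56.7 CPM.

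Interferon-induced genes outside the family gave a second view. Of 47 tested, 12 were higher and 0 lower in TET2-FLT3 vehicle than in WT, with a median log2 fold change of 0.80. In IDH2-FLT3 vehicle 0 were higher and 16 lower, with a median of -0.61, whereas the family's median there was 2.15. With 5-Aza 8 were lower and 0 higher (median -0.76), and with AG-221 9 were higher and 0 lower (median 0.33), where the family's median was -0.97. Between the vehicle groups, 22 were higher in TET2-FLT3 and 0 lower (median 1.31). Ifi44, induced by interferon, gave 83.0 ± 21.3 CPM in WT, 3.27 ± 3.12 CPM in IDH2-FLT3 vehicle, 10.04 ± 3.42 CPM with AG-221, 235 ± 103 CPM in TET2-FLT3 vehicle and 45.2 ± 11.9 CPM with 5-Aza. It was thus low in the IDH2-FLT3 groups, where Ifi204, Ifi205 and Ifi209 were above WT in vehicle. Isg15, a ubiquitin-like modifier, rose in TET2-FLT3 vehicle (1.21 ± 0.34, edgeR adjusted p = 0.0302), fell in IDH2-FLT3 vehicle (-1.89 ± 0.39, edgeR adjusted p = 0.00257) and rose with AG-221 (1.30 ± 0.39, edgeR adjusted p = 0.0396). Ifit1 fell in IDH2-FLT3 vehicle (-3.51 ± 0.45, edgeR adjusted p = 6.10e-05) and rose with AG-221 (1.87 ± 0.42, edgeR adjusted p = 0.0154). Ifi44l fell in IDH2-FLT3 vehicle to 0.129 ± 0.183 CPM (edgeR adjusted p = 1.41e-06). Mndal was the 1 member that fell in IDH2-FLT3 vehicle, where 16 genes of this list fell, but its call ended in 8 of 16 alternatives. Its closest pattern was that of Epsti1, a gene of this list. Whether Mndal and this list have a cause in common was not tested.

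Of 14 genes of interferon signalling tested, 1 was higher in TET2-FLT3 vehicle than in WT, 1 higher and 3 lower in IDH2-FLT3 vehicle, and 1 higher and 2 lower with AG-221, while 0 of 14 passed with 5-Aza. Ifngr1, a chain of the interferon gamma receptor, rose from 260 ± 42.2 to 641 ± 283 CPM in IDH2-FLT3 vehicle (1.30 ± 0.28, edgeR adjusted p = 0.00335) and fell with AG-221 (-1.28 ± 0.28, edgeR adjusted p = 0.0139). Il10rb, a chain shared by the receptors of interleukin-10 and interferon lambda, rose in TET2-FLT3 vehicle (0.61 ± 0.17, edgeR adjusted p = 0.0282). Irf2, a repressor of interferon responses, fell in IDH2-FLT3 vehicle (-1.01 ± 0.29, edgeR adjusted p = 0.0172). Socs3, a brake on cytokine signalling, rose with AG-221 (2.37 ± 0.65, edgeR adjusted p = 0.0290).

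**Figure D5:**
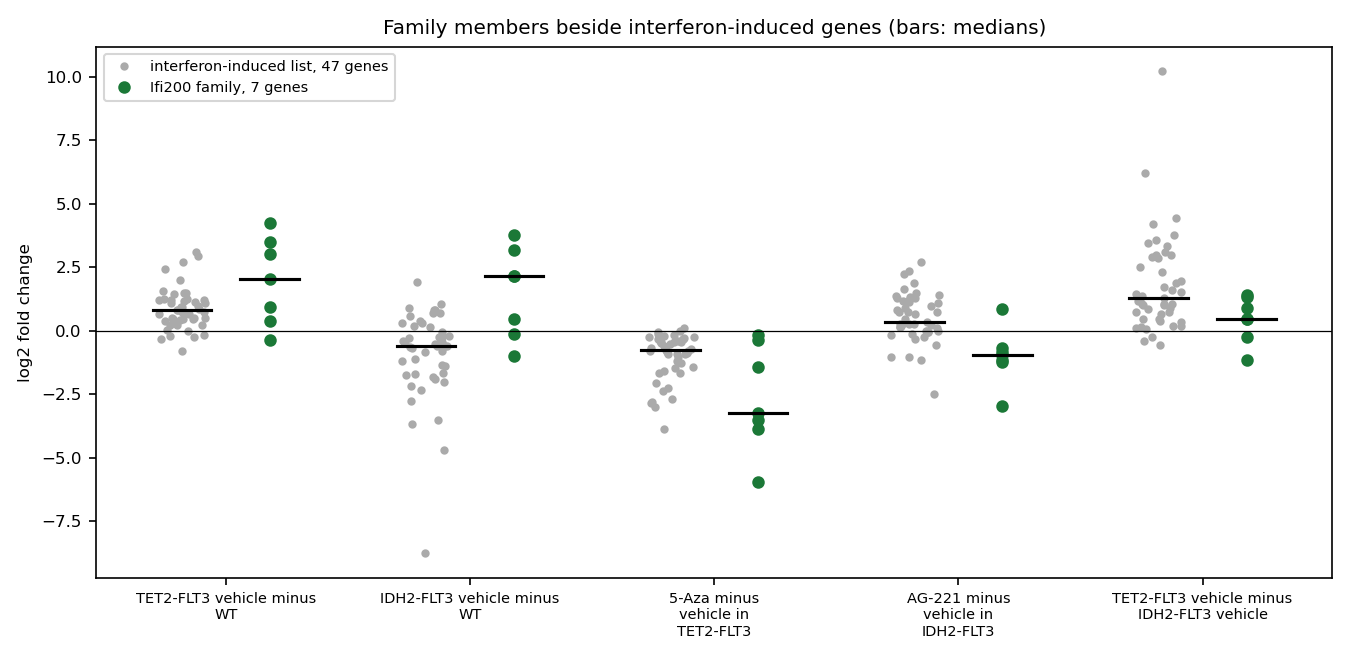
Log2 fold changes of 47 interferon-induced genes (grey) and the 7 tested family members (green) in 5 comparisons, with bars at the medians. In IDH2-FLT3 vehicle against WT the list has a median of -0.61 and the family 2.15, and with 5-Aza both medians are below 0, at -0.76 and -3.25.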

How the data were processed

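RNA of 19 libraries was sequenced after SMARTer Ultra Low Input preparation, per the labels' protocols. Per the submitters' processing notes, the authors used mm9, STAR 2.4.0f1 and featureCounts of Subread 1.4.5-p1. The deposited files hold raw counts and FPKM per RefSeq accession; FPKM recomputed from the counts, the library totals and the lengths differed by at most 6.3e-07 in relative terms. Column headers gave groups. No 2 libraries of a group were copies (lowest chi-square per accession 14.64). The count test was edgeR's quasi-likelihood test (version 4.0.16, R 4.3.3) on 5 group means with 14 residual degrees of freedom. Of 33862 accessions 11830 passed filterByExpr (minimum count 10), and TMM scaling gave factors of 0.761 to 1.22. Errors are SD over libraries or, for log2 fold changes, an approximate standard error. The latter is the absolute log2 fold change divided by the square root of the F statistic of its test. CPM used TMM-scaled totals. The members and lists were chosen with earlier results of these data known. Named were all members, up to 4 genes per list with the smallest p among those called, 3 closest patterns per member, and up to 5 tested neighbours per side, of which 2 are not reported here. Alternatives were RLE factors, no filter, DESeq2 1.42.0, the compared groups alone, limma 3.58.1 on log2(FPKM + 1) or log2(FPKM + 0.1), counts summed over accessions and each library left out. Leaving out V3-2 and V5-2, or summing them with V3 and V5, was chosen after seeing the data. Transcript windows came from GENCODE vM21 and no mm9 genome was used.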

Additional observations from a re-analysis of the deposited data

Results flagged for a closer look

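AG13, a library of the AG-221 group, stood far above the other 3 for 3 members, and these were the only such cases among 28 sets of 4 libraries tested for a library far from the rest, of which chance picks about 1 in 20. Its Ifi205 was 159 CPM against 20.7 CPM in the next library, a gap of 0.892 of the group's whole range. Its Ifi207 was 32.0 CPM against 5.39 CPM (0.912), and its Ifi209 55.7 CPM against 17.7 CPM (0.889). The 3 genes share this library, so they are not separate observations. Xcr1 was 237 CPM in AG13 and at most 24.3 CPM in the other AG-221 libraries. The part of such cells in these values was not tested, and the dose given to AG13 is not stated in the labels.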

How the results depend on the processing

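Over 42 results (7 members in 6 comparisons), 742 alternatives were run: 671 kept direction and side of the threshold, 46 lost a call, 10 gained one and 15 changed sign, of which 0 were of a called value. Calls of Ifi204 and Ifi209 in IDH2-FLT3 vehicle, of Ifi205 in TET2-FLT3 vehicle and of Ifi204, Ifi205 and Ifi209 with 5-Aza held in all of them. Those of Ifi204 in IDH2-FLT3 vehicle and with 5-Aza reuse the WT or vehicle libraries by which the gene was picked, so they are descriptions. Members called with AG-221 (2 of 7) were 1 with no filter, 0 in the compared groups alone, 1 without V3-2 and V5-2 and 1 with V3 and V3-2, and V5 and V5-2, summed. Members called between the drug responses (0) were 1 with no filter and 2 with DESeq2. Members called between the vehicle groups (1) were 0 in the compared groups alone, 2 on log2(FPKM + 1) and 0 with summed pairs. With each library left out, members called ranged from 2 to 4 in TET2-FLT3 vehicle, 3 to 4 in IDH2-FLT3 vehicle, 0 to 1 between the vehicle groups, 1 to 3 with AG-221, 3 to 4 with 5-Aza and 0 to 1 between the drug responses. Without V3-2 and V5-2, Ifi203 was -0.22 in IDH2-FLT3 vehicle and -0.037 between the drug responses; with summed pairs, Ifi205 was -0.31 between the vehicle groups and Ifi203 -0.081 between the drug responses. With each library left out, values that changed sign ranged for Ifi203 from -0.23 to 0.73 in IDH2-FLT3 vehicle, -0.52 to 1.19 between the vehicle groups and -0.79 to 0.89 between the drug responses, for Ifi205 from -0.23 to 1.81 between the vehicle groups and -2.80 to 0.39 with AG-221, for Ifi207 from -2.15 to 0.32 with AG-221 and for Ifi209 from -0.46 to 0.79 between the drug responses. The cause was not tested. Over all accessions, calls in TET2-FLT3 vehicle (1199) were 1928 with DESeq2, 1884 on log2(FPKM + 1) and 503 to 1410 with each library left out. In IDH2-FLT3 vehicle (2428) they were 1599 with summed pairs and 1266 to 2779 with each library left out. Between the vehicle groups (506) they were 1150 with DESeq2, 17 in the compared groups alone, 187 without V3-2 and V5-2, 149 with summed pairs and 114 to 1656 with each library left out. With AG-221 (1145) they were 2092, 0, 265, 197 and 97 to 2252 under the same settings. With 5-Aza (222) they were 462 with DESeq2 and 57 to 241 with each library left out. Between the drug responses (27) they were 185 with no filter, 355 with DESeq2, 0 in the 4 groups alone (1388 at an unadjusted p under 0.05), 45 on log2(FPKM + 1), 98 on log2(FPKM + 0.1), 14 with summed pairs and 0 to 644 with each library left out. No paired analysis was possible because the columns of the leukemic groups carry library names and not the replicate numbers of the labels. Depth limits Ifi211, with 1 count, and Ifi204 and Ifi207 in WT and 5-Aza, where groups held 100 to 200 counts in all. Depth also limits Ifi205 with 5-Aza, at 107 counts in all.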
